A study of Mus musculus with 12 samples.

Results

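Carbonic anhydrase genes and genes of the red cell lineage were followed through a microarray study of thymocytes that lack MED23, which is part of Mediator, the complex that links transcription factors to RNA polymerase II. The set was Car4, Car2, Car1, Hba-a1, Alas2 and Epor, which is 6 of the 8251 genes that a probe set names alone on the Affymetrix mouse array used. Every probe set whose annotation gives one of these symbols and no other was taken, which gave 7 of 12488 probe sets, with 2 for Car4 and 1 for each other gene. The genes were selected on signals of these same arrays, above all the high Car4 signal of the mock-treated MED23 null samples, so the levels and differences of the members below are descriptions and carry no p-value. The question asked of them was whether Car4 followed the erythroid genes from mouse to mouse and from treatment to treatment.

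Total thymocytes came from 2 MED23 null mice (Med23flox/flox;Lck-Cre), 2 Lck-Cre mice (Med23+/+;Lck-Cre) and 2 Med23flox/flox mice, all female, 6 to 7 weeks old and of the C57Bl/6 x 129Sv (F1) background. After 4 h of rest, the cells of a mouse were split between wells with plate-bound antibody to CD3, a component of the T-cell receptor, and wells without it (mock) for 3 h. Each well gave 1 array, so that 12 arrays were measured. The Lck-Cre transgene deletes the floxed allele in developing T cells, and the Lck-Cre and Med23flox/flox mice each carry one component of the null genotype. Whether red blood cells were removed from the suspensions is not given in the sources used here. In RNA of a whole suspension, fewer cells of a type and less RNA per cell cannot be told apart.

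Carbonic anhydrases interconvert carbon dioxide and bicarbonate. Car1 and Car2 encode cytosolic enzymes that are abundant in red cells, whereas Car4 encodes an enzyme held at the outer face of the plasma membrane by a lipid anchor. Hba-a1 encodes an alpha chain of adult haemoglobin, Alas2 the erythroid form of the first enzyme of heme synthesis, and Epor the receptor for erythropoietin, which keeps red cell progenitors alive. GATA1 is a zinc finger factor of the erythroid lineage that binds GATA sequences, and factors of the KLF family bind CACCC sequences in globin promoters.

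The promoters of Car4 and of the erythroid members were set side by side to show how far they share these letters. The windows hold 300 bases around the start of transcription and are RefSeq sequence of GRCm38.p6, found for 4 of the 6 genes, without Car1 and Car2. They were searched on both strands for AGATAA and its variants in which the first base is T, the last base is G, or both and for CACCC, which can share end bases with a GATA match. The windows of Car4 (chr11:84957504-84957803, plus strand), Hba-a1 (chr11:32283422-32283721, plus strand) and Alas2 (chrX:150547167-150547466, plus strand) follow 5′ to 3′, with the GATA match in capitals as it reads on the printed strand.
Car4: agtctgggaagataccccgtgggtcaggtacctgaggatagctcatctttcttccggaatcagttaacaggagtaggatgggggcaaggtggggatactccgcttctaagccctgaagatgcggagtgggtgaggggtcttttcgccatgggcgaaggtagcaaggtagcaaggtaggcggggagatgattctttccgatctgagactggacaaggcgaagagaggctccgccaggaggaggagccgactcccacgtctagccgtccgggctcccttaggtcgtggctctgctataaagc
Hba-a1: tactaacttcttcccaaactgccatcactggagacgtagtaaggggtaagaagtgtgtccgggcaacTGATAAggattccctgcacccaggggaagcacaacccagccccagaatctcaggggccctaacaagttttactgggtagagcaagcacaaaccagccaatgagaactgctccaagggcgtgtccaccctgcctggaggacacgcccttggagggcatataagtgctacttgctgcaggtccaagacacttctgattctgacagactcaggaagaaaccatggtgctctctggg
Alas2: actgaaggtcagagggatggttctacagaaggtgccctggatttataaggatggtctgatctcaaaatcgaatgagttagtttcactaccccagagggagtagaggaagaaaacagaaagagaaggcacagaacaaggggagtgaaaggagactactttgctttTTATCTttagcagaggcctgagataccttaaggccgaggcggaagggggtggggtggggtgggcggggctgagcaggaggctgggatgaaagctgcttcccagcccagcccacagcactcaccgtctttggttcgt
Hba-a1 held 1 GATA match, TGATAA on the plus strand, which began 183 bases before the start. Alas2 held 1 match on the opposite strand, read as TTATCT here, 86 bases before the start. Epor (chr9:21963527-21963826, minus strand, not printed) likewise had 1, 54 bases before the start, and the Car4 window had 0. CACCC was found once in Car4, 2 times in Hba-a1, 3 times in Alas2 and 2 times in Epor. Of 32851 mouse promoter windows of this length, 29.8% held a GATA match and 57.5% a CACCC match. A match says only that the letters are in the window.

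The arrays were examined before the genes. The anti-CD3 array of Med23flox/flox mouse 1 stood apart from the other 11, with a lower quartile signal of 85.2 where no other array exceeded 58.2, and a mean correlation with the other arrays of 0.905 against 0.937 to 0.945. After anti-CD3 the actin 3′ to 5′ signal ratio, a measure of RNA integrity, was 1.90 and 1.61 in the MED23 null arrays, against 1.35 to 1.41 in the 4 control arrays. In mock arrays it overlapped, at 1.44 and 1.63 in MED23 null and 1.35 to 1.6 in control arrays. The same ratio for GAPDH after anti-CD3 was 0.636 and 0.766 in MED23 null and 0.599 to 0.648 in control arrays. All 8 measured genes of 9 thymocyte markers passed the filter on low signals, with Lck not measured by a probe set of its own, and their summed mock signal was 73512 and 79389 in MED23 null mice and 85696 to 92447 in control mice. Among red cell markers, Ahsp and the adult beta globin genes Hbb-b1, Hbb-bs and Hbb-bt were not measured by a probe set of their own. The part of the array quality values and of the thymocyte markers in the results below was not tested.

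Car4 gave one pattern with the first of its probe sets and another with the second. With 103046_at its mock signal was 345 and 265 in MED23 null mice 1 and 2, against 49.6 and 48.4 in the Lck-Cre mice and 49.9 and 55.8 in the Med23flox/flox mice. Both MED23 null values lay above all 4 control values. The control signals lie near the lower quartile of the arrays, so that the fold difference depends on how low signals are treated. The mock mean was 305 ± 56.8 (SD, n = 2) in MED23 null and 50.9 ± 3.31 (SD, n = 4) in control thymocytes, a ratio of 5.98, and the difference on the scale of log2(signal + 50) was 1.80 (limma standard error 0.15). Against each control genotype alone it was 1.83 (standard error 0.19) with Lck-Cre and 1.78 (standard error 0.19) with Med23flox/flox, and the control genotypes themselves differed by -0.05 (standard error 0.19, Lck-Cre minus Med23flox/flox).

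After anti-CD3 the same probe set no longer separated the genotypes. Its signal was 47.3 and 177 in MED23 null mice 1 and 2, against 56.1 and 50.8 in the Lck-Cre mice and 336 and 68.5 in the Med23flox/flox mice. The highest value of these arrays thus came from Med23flox/flox mouse 1, whose anti-CD3 array stood apart, and MED23 null mouse 1 had the lowest. The means were 112 ± 92.0 (SD, n = 2) in MED23 null and 128 ± 139 (SD, n = 4) in control thymocytes, with a log2 difference of 0.00 (standard error 0.62), which was 0.46 without Med23flox/flox mouse 1. The difference was 0.52 (standard error 0.63) against Lck-Cre and -0.52 (standard error 0.63) against Med23flox/flox, and the value against Med23flox/flox was 0.33 without Med23flox/flox mouse 1. It also moved with the null mouse kept, since the difference from all controls was 0.61 without MED23 null mouse 1 and -0.61 without MED23 null mouse 2.

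The within-mouse ratio of anti-CD3 to mock signal of 103046_at was below 1 in both MED23 null mice and above 1 in all 4 control mice. It was 0.137 and 0.67 in the MED23 null mice, against 1.13 and 1.05 in the Lck-Cre mice and 6.73 and 1.23 in the Med23flox/flox mice. In 3 of the 4 control mice the ratio thus stayed within 1.05 to 1.23. The mean log2 change was -1.24 (standard error 0.55) in MED23 null and 0.56 (standard error 0.39) in control mice. The MED23 null value was -0.47 without MED23 null mouse 1 and -2.02 without MED23 null mouse 2, and the control value was 0.10 without Med23flox/flox mouse 1. The difference between them was -1.80 (standard error 0.68), which was -1.34 without Med23flox/flox mouse 1, -1.03 without MED23 null mouse 1 and -2.58 without MED23 null mouse 2.

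The second Car4 probe set, 161818_f_at, did not show these contrasts. Its mock signal was 387 and 579 in the MED23 null mice, 535 and 359 in the Lck-Cre mice and 353 and 419 in the Med23flox/flox mice. After anti-CD3 it was 477 and 290 in the MED23 null mice, 505 and 270 in the Lck-Cre mice and 404 and 406 in the Med23flox/flox mice. The groups overlapped in both treatments, with log2 differences between MED23 null and all controls of 0.18 (standard error 0.23) in mock and -0.05 (standard error 0.28) in anti-CD3 arrays. The suffix of this probe set marks probes shared within a sequence family. Which of the 2 Car4 probe sets follows Car4 mRNA was not tested.

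**Figure D1:**
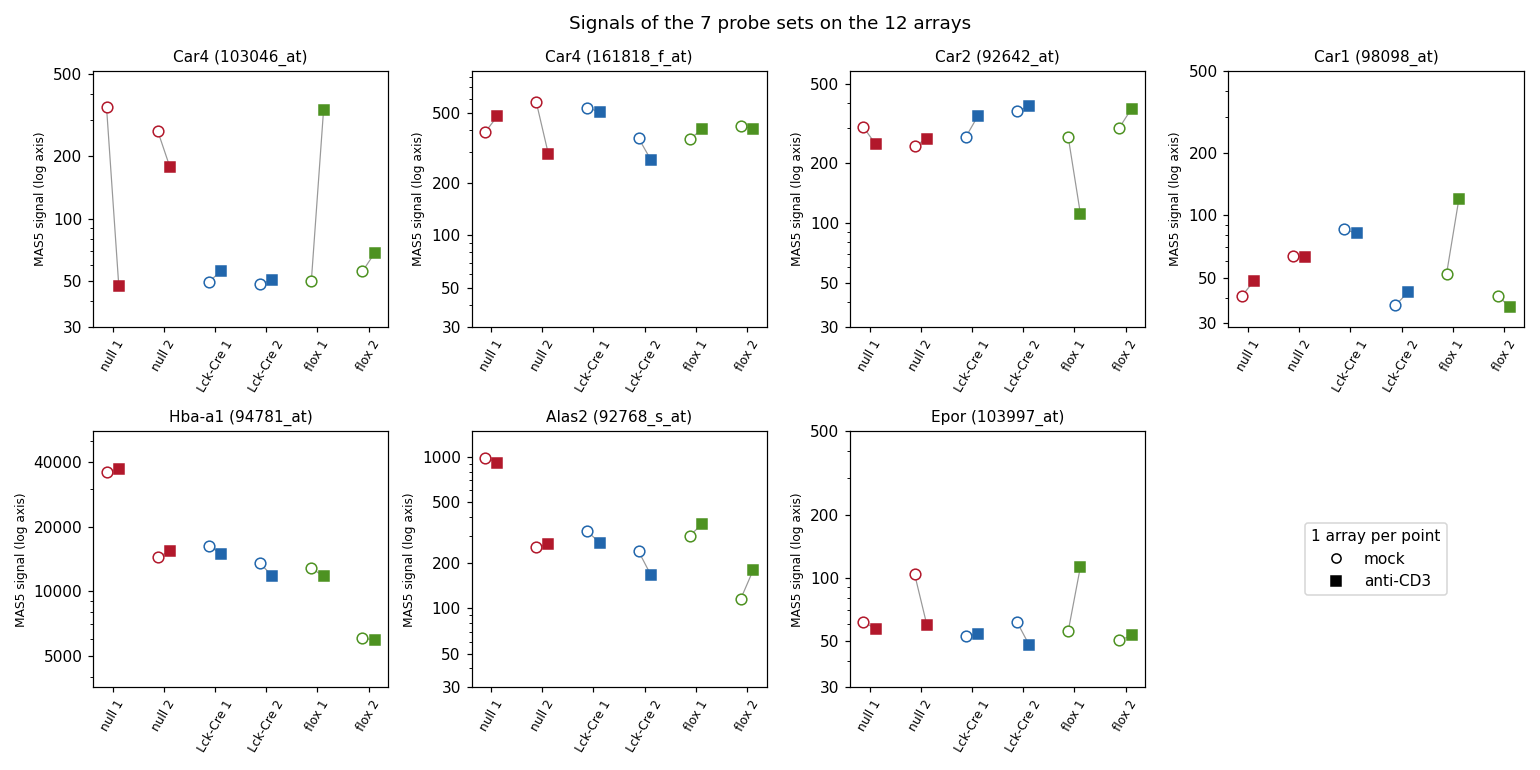
Signals of the 7 probe sets on the 12 arrays, with MAS5 signal on a log axis and the 6 mice along the horizontal axis. Open circles are mock and filled squares anti-CD3 arrays, 1 array per point, joined within a mouse. The high Car4 103046_at arrays (345, 265 and 177 in MED23 null mice and 336 in Med23flox/flox mouse 1) include only 1 of the 2 arrays of MED23 null mouse 1, which stand above the rest for Hba-a1.

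Car2, the highly active cytosolic enzyme, was at similar levels in all mock samples. Its mock signal was 304 and 244 in the MED23 null mice, 271 and 365 in the Lck-Cre mice and 272 and 302 in the Med23flox/flox mice. After anti-CD3 it was 249 and 266 in the MED23 null mice, 347 and 389 in the Lck-Cre mice and 111 and 377 in the Med23flox/flox mice. In mock arrays the groups overlapped. After anti-CD3 both MED23 null values lay below those of the Lck-Cre mice (log2 difference -0.44, standard error 0.45) and overlapped those of all controls only through the value of 111, which came from the array that stood apart. The log2 difference between MED23 null and all controls was -0.12 (standard error 0.18) in mock and -0.10 (standard error 0.43) in anti-CD3 arrays, and the anti-CD3 value was -0.45 without Med23flox/flox mouse 1.

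Car1, the other cytosolic enzyme, stayed low. Its mock signal was 40.7 and 63.8 in the MED23 null mice, 85.5 and 36.7 in the Lck-Cre mice and 52.3 and 40.8 in the Med23flox/flox mice. After anti-CD3 the values were 48.3 and 62.6 in the MED23 null mice, 81.9 and 42.4 in the Lck-Cre mice and 120 and 36.0 in the Med23flox/flox mice. It reached a mean of 100 in no condition and therefore stayed out of the fits across probe sets. The groups overlapped in both treatments.

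Hba-a1 differed between mice and little between the treatments of a mouse. Its mock signal was 36041 and 14458 in the MED23 null mice, 16268 and 13502 in the Lck-Cre mice and 12839 and 6037 in the Med23flox/flox mice. After anti-CD3 it was 37280 and 15386 in the MED23 null mice, 14974 and 11766 in the Lck-Cre mice and 11738 and 5935 in the Med23flox/flox mice. MED23 null mouse 1 was highest and Med23flox/flox mouse 2 lowest in both treatments, and the order of the other mice differed only in that MED23 null mouse 2 and Lck-Cre mouse 1 changed places. The highest mouse exceeded the lowest 5.97-fold in mock and 6.28-fold in anti-CD3 arrays, whereas the within-mouse ratio of anti-CD3 to mock signal lay between 0.871 and 1.06. It was above 1 in both MED23 null mice (1.03 and 1.06) and below 1 in all 4 control mice (mean 0.922 ± 0.046, SD), with a difference in log2 change of 0.19 (standard error 0.19).

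The mean Hba-a1 signal was higher in MED23 null samples, and that difference leaned on a single mouse. In mock arrays it was 25250 ± 15262 (SD, n = 2) in MED23 null and 12162 ± 4345 (SD, n = 4) in control thymocytes, a log2 difference of 1.00 (standard error 0.49), and in anti-CD3 arrays the log2 difference was 1.18 (standard error 0.47). MED23 null mouse 1 exceeded MED23 null mouse 2 by 2.49-fold in mock arrays, which is close to the 2.69-fold span of the 4 control mice. Without MED23 null mouse 1 the log2 differences were 0.34 in mock and 0.55 in anti-CD3 arrays. Against Lck-Cre alone the difference was 0.62 (standard error 0.53) in mock and 0.85 (standard error 0.51) in anti-CD3 arrays, and against Med23flox/flox alone it was 1.37 (standard error 0.53) in mock and 1.51 (standard error 0.51) in anti-CD3 arrays. The myeloid markers, of which 7 of 8 passed the filter, had summed mock signals of 4496 and 4351 in MED23 null mice and 2705 to 4840 in control mice, and those of B cells, of which 3 of 5 passed, 1601 and 1460 in MED23 null mice and 1132 to 1426 in control mice. Their part in this result was not tested.

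Alas2 shared its highest mouse with Hba-a1 in both treatments. Its mock signal was 988 and 253 in the MED23 null mice, 322 and 238 in the Lck-Cre mice and 301 and 116 in the Med23flox/flox mice. After anti-CD3 it was 915 and 266 in the MED23 null mice, 271 and 166 in the Lck-Cre mice and 360 and 179 in the Med23flox/flox mice. MED23 null mouse 2 lay among the controls, and after anti-CD3 Med23flox/flox mouse 1, the next to lowest for Hba-a1, was the next to highest for Alas2. The log2 difference between MED23 null and all controls was 1.00 (standard error 0.53) in mock and 0.96 (standard error 0.47) in anti-CD3 arrays, and without MED23 null mouse 1 it was 0.11 in mock and 0.16 in anti-CD3 arrays. Within mice the ratio of anti-CD3 to mock signal was 0.927 and 1.05 in the MED23 null mice, 0.843 and 0.699 in the Lck-Cre mice and 1.19 and 1.54 in the Med23flox/flox mice.

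Epor, unlike the other erythroid members, was low on nearly every array. Its mock signal was 61.8 and 104 in the MED23 null mice, 52.5 and 61.5 in the Lck-Cre mice and 55.5 and 50.2 in the Med23flox/flox mice. After anti-CD3 it was 56.9 and 59.5 in the MED23 null mice, 54.2 and 47.7 in the Lck-Cre mice and 113 and 53.1 in the Med23flox/flox mice. Its higher values were thus the mock array of MED23 null mouse 2 and the anti-CD3 array that stood apart. Both mock MED23 null values lay above the 4 control values, although the nearest pair was 61.8 against 61.5, and the mean passed 100 in no condition.

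**Figure D2:**
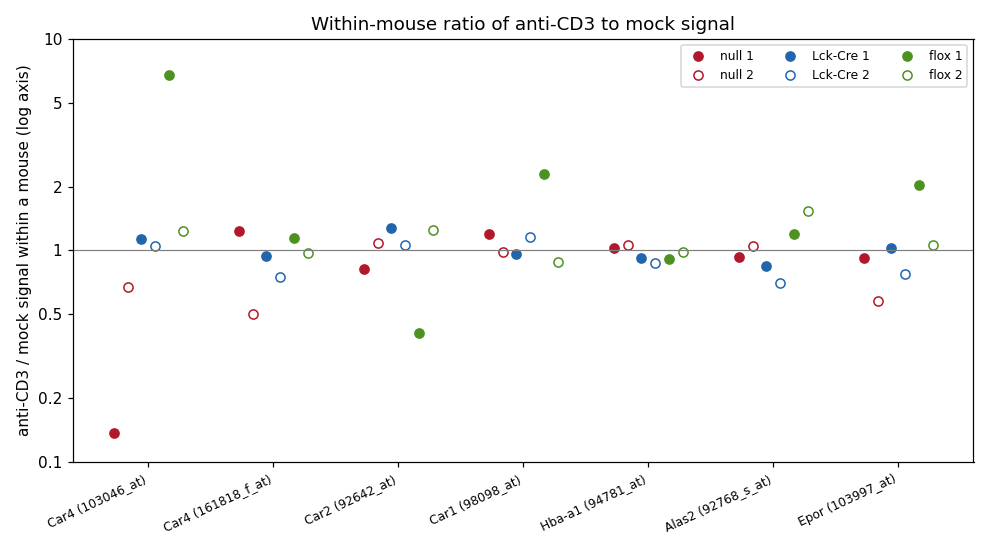
Ratio of anti-CD3 to mock signal within each of the 6 mice for the 7 probe sets, on a log axis with a line at 1. Each point is 1 mouse. Hba-a1 stayed between 0.871 and 1.06 in all mice, whereas Car4 103046_at ran between 0.137 in MED23 null mouse 1 and 6.73 in Med23flox/flox mouse 1.

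Across all probe sets few differences passed the test, and none of the members did. The fits took probe sets whose mean signal reached 100 in some genotype and treatment, which 9478 of the array and 5 of the 7 did, and Car4 103046_at did so only through the conditions in which it was high. With limma and an adjusted p threshold of 0.05, the share of the 9478 probe sets called was 0% in each of the 8 comparisons between genotypes and 0% for the difference in induction between MED23 null and control mice. At an unadjusted p under 0.05, 701 of the 9478 passed between MED23 null and all control mice in mock arrays and 584 in anti-CD3 arrays. The share called was 0.148% for the change with anti-CD3 in control mice and 0.0317% for that in MED23 null mice. Of the 5 members tested, 0 were called in any of these 11 comparisons.

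Both MED23 null mock arrays lay above all 4 control mock arrays for 1 of the 5 members, Car4 103046_at, beside 9.27% of all tested probe sets, and below them for 0 members, beside 8.44%. In anti-CD3 arrays they lay above for 1 member, Hba-a1, beside 6.9%, and below for 0, beside 8.61%. The within-mouse ratio of both MED23 null mice was below that of all 4 control mice for 1 member, Car4 103046_at, beside 7.36%, and above it for 1 member, Hba-a1, beside 6.02%. Because the members were selected on such values, nothing is read from these counts.

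A change of at least 2-fold with anti-CD3, after adding 50 to each signal, was counted in each mouse. In MED23 null mouse 1 it was met by 1 of 5 members, Car4 103046_at, beside 6.77% of all probe sets, and in MED23 null mouse 2 by 0 members, beside 6.08%. In Med23flox/flox mouse 1 it was met by Car4 103046_at and Car2, beside 13.3% of all probe sets, and in Med23flox/flox mouse 2 by 0, beside 5.51%. No member met it in Lck-Cre mouse 1, beside 6.9%, or in Lck-Cre mouse 2, beside 5.44%. The mouse with the largest Car4 increase was therefore also the mouse in which the most probe sets of the array changed 2-fold.

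**Figure D3:**
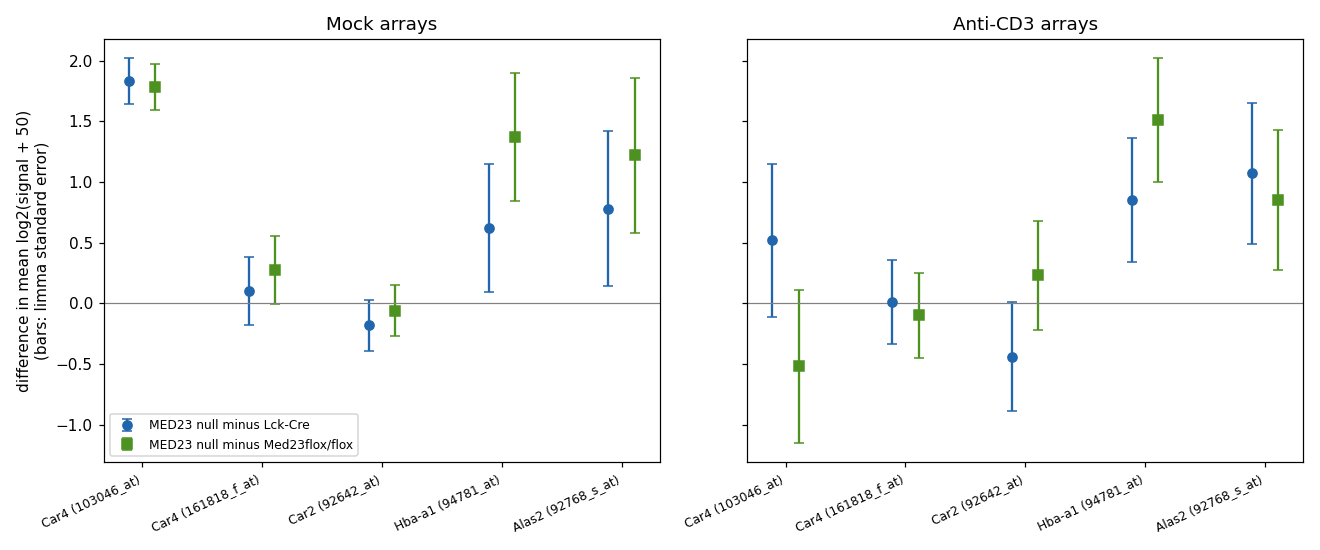
Difference between MED23 null and each control genotype in mean log2(signal + 50), for the 5 probe sets that passed the filter, in mock (left) and anti-CD3 arrays (right). Circles are MED23 null minus Lck-Cre and squares MED23 null minus Med23flox/flox, with bars of 1 limma standard error (2 mice per genotype). Car4 103046_at lies at 1.83 and 1.78 in mock arrays and at 0.52 and -0.52 in anti-CD3 arrays, while Hba-a1 lies above 0 in all 4 comparisons.

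Whether Car4 followed the erythroid genes was read from the arrays themselves. The signals of 103046_at fall into a high and a low cluster, so no correlation over the arrays is given for it. Its 4 high signals, 345, 265, 177 and 336, lay on arrays with Hba-a1 signals of 36041, 14458, 15386 and 11738 and Alas2 signals of 988, 253, 266 and 360. The array with the highest Hba-a1 signal, 37280, had the lowest Car4 signal of the series, 47.3. On the same 4 arrays Epor was at 61.8, 104, 59.5 and 113, which includes both Epor signals above 100 of the series. Hba-a1 and Alas2 had a Pearson correlation of log2(signal + 50) of 0.92 over the 12 arrays, which is a description because the arrays share mice, genotypes and treatments, and 0.75 over the 10 arrays without MED23 null mouse 1, a comparison added after the values were seen. For the other Car4 probe set, 161818_f_at, the correlation over the 12 arrays was 0.15 with Hba-a1, 0.2 with Alas2 and 0.31 with Epor, likewise a description.

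**Figure D4:**
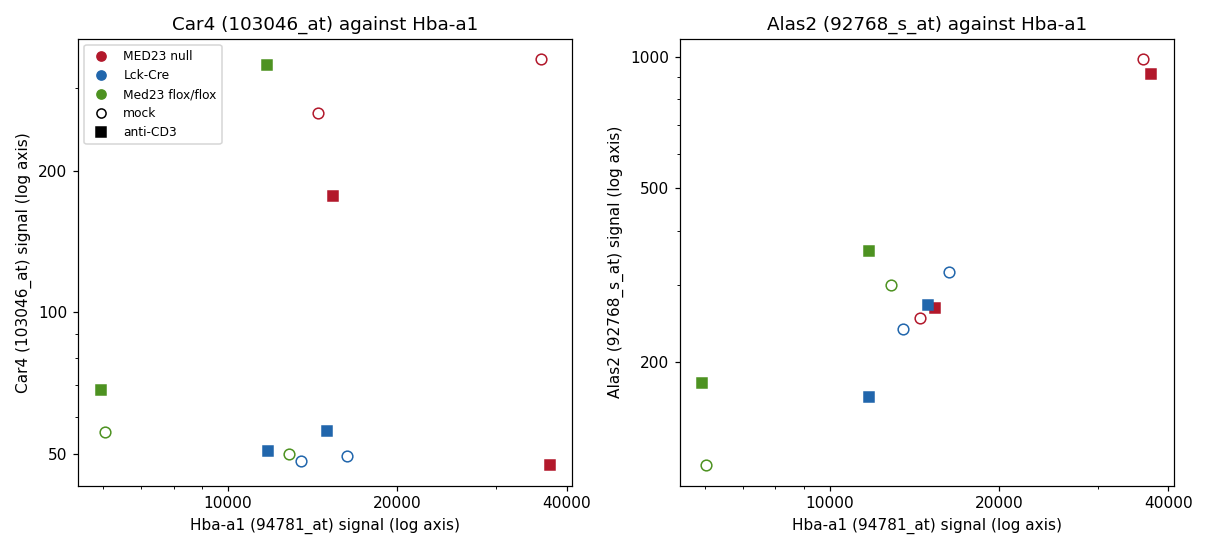
Car4 103046_at (left) and Alas2 (right) against Hba-a1 on the 12 arrays, with MAS5 signals on log axes. Each point is 1 array. Alas2 climbs with Hba-a1 (r = 0.92, and 0.75 without MED23 null mouse 1, whose arrays stand above the rest). The Car4 values of 177 and above lie at Hba-a1 signals of 11738 to 36041.

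The probe sets of other genes with the most similar patterns were ranked by Pearson correlation over the 12 arrays for the brightest probe sets of Hba-a1 and Car4. Nearest to Hba-a1 were Rxra (0.95), which encodes a nuclear receptor, Atpif1 (0.94), the inhibitor of the mitochondrial ATPase, Hbb-b2 (0.92), an adult beta globin, Alas2 (0.92) and Fgfr1op2 (0.90). These values include the arrays of MED23 null mouse 1, which stood above the rest for Hba-a1. Without that mouse the value of Alas2 was 0.75. Nearest to the brighter Car4 probe set, 161818_f_at, were Esrp2 (0.87), Gabbr1 (0.85), Gstm5 (0.85), Upp1 (0.83) and Sdc4 (0.82). No globin and no other member was among these 5.

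Further genes of these pathways were counted in 6 lists of 73 genes, of which 46 were measured by a probe set of their own and 41 passed the filter. None of the 41 was called in any of the 11 comparisons by limma with adjustment over all 9478 probe sets. At an unadjusted p under 0.05, 3 of the 41 passed between MED23 null and all controls in mock arrays and 5 in anti-CD3 arrays. Beside them, 701 of all 9478 probe sets passed in mock arrays and 584 in anti-CD3 arrays.

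The embryonic and adult globins were the list that lay highest in MED23 null samples. Of 11 genes 4 were tested, and in mock arrays 4 of 4 had a difference above 0 with a median log2 difference of 0.68, beside 0.01 over all probe sets, and in anti-CD3 arrays 3 of 4 with a median of 1.03, beside -0.01. Hbb-b2 had mock signals of 8601 and 2258 in MED23 null mice, 2270 and 1869 in Lck-Cre mice and 2316 and 1065 in Med23flox/flox mice, a log2 difference of 1.27 (standard error 0.55, limma adjusted p = 0.675). As with Hba-a1, in mock arrays MED23 null mouse 1 stood above the rest and MED23 null mouse 2 lay among the controls. The anti-CD3 signals of Hbb-b2 were 9296 and 2232 in MED23 null mice, 2046 and 1567 in Lck-Cre mice and 2139 and 1580 in Med23flox/flox mice. Both MED23 null values thus lay above all controls, as for Hba-a1, though that of MED23 null mouse 2 only narrowly. A probe set that several beta globin genes share had mock signals of 43693 and 17860 in MED23 null mice, 21327 and 18199 in Lck-Cre mice and 16265 and 8814 in Med23flox/flox mice, and so did not separate MED23 null from control mice in mock arrays. After anti-CD3 it was 41785 and 19302 in MED23 null mice, 17975 and 13744 in Lck-Cre mice and 16556 and 8902 in Med23flox/flox mice, with both MED23 null values above all controls. The embryonic Hbb-y, Hbb-bh1 and Hba-x had mock log2 differences of 0.90, 0.46 and 0.36, and the other Hbb-y probe set was at -0.05 in anti-CD3 arrays where the brighter was at 1.10.

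The medians of the other lists lay closer to that of all probe sets. The 6 tested enzymes of heme synthesis had a mock median of -0.04, with 2 above 0, and an anti-CD3 median of 0.04, with 5 above 0. The ubiquitous enzymes Alad (0.31), Urod (-0.19) and Cpox (-0.17) had smaller differences than Alas2. Other probe sets differed in sign for Urod (0.44) and for Ank1 (-0.29 against 0.27) in mock arrays, and for Bcl2l1 (-0.84 against 0.10) and Slc11a2 (-0.45 against 0.06) in anti-CD3 arrays. Red cell membrane and enzyme genes had a mock median of 0.28, with 7 of 8 above 0, and an anti-CD3 median of -0.07, with 4 of 8 above 0. Among them were Slc4a1, the anion exchanger of the red cell membrane (0.43, standard error 0.44, in mock arrays), Rhd (0.42) and Rhag (0.39), both Rh proteins, and Aqp1, a water channel (0.30). Slc4a1 had mock signals of 255 and 274 in MED23 null mice and 66.0, 233, 336 and 185 in control mice, so that the groups overlapped. The Aqp1 difference came from MED23 null mouse 1, at 212. MED23 null mouse 2, at 27.5, lay below the control mice, which were at 54.1 to 94.9.

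Erythroid transcription factors had a mock median of 0.21, with 6 of 8 above 0, and an anti-CD3 median of 0.08, with 6 of 8 above 0. Hemgn (0.66) and Gfi1b (0.47, standard error 0.39) had the largest mock differences, and Gata1 was at 0.34 with its brighter and at -0.71 with its other probe set. The Gfi1b difference came from MED23 null mouse 1, at 195. MED23 null mouse 2, at 34.4, lay below the control mice, which were at 46.0 to 66.7. Klf1, an activator of adult beta globin, was named after its values were seen. Its anti-CD3 signals were 352 and 380 in MED23 null mice, 73.3 and 174 in Lck-Cre mice and 136 and 141 in Med23flox/flox mice, a log2 difference of 1.23 (standard error 0.26, limma adjusted p = 0.493), whereas its mock difference was -0.17 (standard error 0.44). Of the 11 genes of erythropoietin receptor signalling and iron uptake, 8 were above 0 in mock arrays, with a median of 0.15, and 8 in anti-CD3 arrays, also with a median of 0.15. Socs3, an inhibitor of cytokine receptor signalling, had mock signals of 1097 and 950 in MED23 null mice, 557 and 566 in Lck-Cre mice and 674 and 418 in Med23flox/flox mice, a log2 difference of 0.84 (standard error 0.20, limma adjusted p = 0.389). Kit, the receptor for stem cell factor, was at 0.68 (standard error 0.32).

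The other carbonic anhydrases did not follow Car4 103046_at. The second Car4 probe set, 161818_f_at, did not follow it either, with log2 differences of 0.18 in mock and -0.05 in anti-CD3 arrays. Of 13 genes 6 were measured and 4 tested, with 2 of 4 above 0 in each treatment and medians of 0.09 in mock and -0.04 in anti-CD3 arrays. Car6, a secreted enzyme, had mock signals of 42.8 and 49.3 in MED23 null mice, 82.6 and 103 in Lck-Cre mice and 170 and 144 in Med23flox/flox mice, a log2 difference of -0.84 (standard error 0.23, limma adjusted p = 0.455). Its MED23 null values lay below all control values in mock arrays, as for 8.44% of all tested probe sets, opposite to Car4 103046_at. After anti-CD3 the Car6 groups overlapped, with a log2 difference of 0.05 (standard error 0.5). Car5a (0.39), Car12 (0.32) and Car14 (-0.13) had smaller differences, and Car14 was at 64.7 in the mock array of Med23flox/flox mouse 1 against 315 to 481 in the other 3 control mice.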

How the data were processed

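Total thymocyte RNA of 6 mice, mock or anti-CD3 treated, was measured on 12 Affymetrix arrays. The deposited values are linear intensities, 1 MAS5 signal per probe set as calculated by the authors. The version of MAS5 is not given in the sources used here. Each array was scaled to the mock array of Lck-Cre mouse 1 by a mean trimmed by 2% at each end (factors within 0.00603% of 1). Low signals were removed by requiring a mean of 100 or more in any of the 6 conditions, not by detection calls, and 9478 of 12488 probe sets met this after 66 controls were left out. Signals plus 50 were taken to log2 and fitted with limma 3.58.1 in R 4.3.3 (lmFit and eBayes, Benjamini-Hochberg adjustment, threshold 0.05). Within each treatment, MED23 null mice were compared with all controls (4 residual degrees of freedom) and genotypes with each other, and anti-CD3 minus mock differences were fitted within mice, so that the mouse was the block, as the labels give it. The number of mice limits the precision. In comparisons of single genotypes, standard errors cover the spread between mice that share a genotype. Where all controls were pooled, they also hold differences between the control genotypes. The eBayes step moderates them over all tested probe sets. On simulated arrays the fits were checked for the mean size of planted changes. That check does not measure how many true differences so few mice can reveal. Python 3.11.15 with pandas 2.3.3, scipy 1.17.1 and matplotlib 3.10.9 did the rest.

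Of the probe sets 10855 have 1 symbol in the platform annotation, 396 several and 1237 none, and 10839 were matched by Entrez ID to GRCm38.p6. The members and gene lists were chosen with earlier results of these data known. All probe sets of the members were named. Each list gene was represented by its brightest probe set, of the 4 largest mock differences of a list those given in the text were named, and other probe sets were mentioned where they differed in sign by over 0.5. The 5 probe sets with the highest correlation were named for the brightest Car4 and Hba-a1 probe sets. A planned correlation of Car4 with the erythroid genes over the 6 mice was not run, because the Car4 signals fall into separate clusters. Results were recomputed with other pseudocounts, signal filters and scalings, with quantile normalization, with a variance trend, with and without a replicate block, and leaving out each mouse.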

Additional observations from a re-analysis of the deposited data

Results flagged for a closer look

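Dixon's test of the most extreme of 4 control mice was applied to 21 groups of values, of which 4 passed its critical value for 4 samples. Chance gives about 1 in 20 for a single group. These groups share arrays and come from members selected on these data, so the count is a description and is not set against chance. All 4 involve Med23flox/flox mouse 1, whose anti-CD3 array stood apart. In anti-CD3 arrays Car4 103046_at was at 336 in this mouse and at 50.8 to 68.5 in the other 3 control mice, and its within-mouse ratio was 6.73 against 1.05 to 1.23. Epor was at 113 against 47.7 to 54.2 in the other control mice, and Car2 at 111 against 347 to 389.

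Car4 103046_at had a mean anti-CD3 to mock ratio of 0.404 in MED23 null and 2.53 in control mice, with both MED23 null mice below 1 and all 4 control mice above 1. The mean Hba-a1 ratio was 1.05 in MED23 null and 0.922 in control mice, with the mice divided at 1 the other way round. The limma test of the difference in induction called neither. Alas2 had a mean ratio of 0.771 in Lck-Cre and 1.37 in Med23flox/flox mice, with both mice of each genotype on opposite sides of 1, and this difference was not tested.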

How the results depend on the processing

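No member was called in any main comparison. Of 825 values of the 5 tested members under alternatives, 1 was called, the mock difference of Car4 103046_at between MED23 null and all controls with the filter at 200, where fewer probe sets were tested. Because this probe set was selected on its mock signals and passes that filter only through conditions in which it was high, nothing is read from the call. The mock difference lay between 1.42 and 2.25 under the other settings and between 1.64 and 1.97 with 1 mouse left out. A sign changed in 50 of the 825, 44 of them when a mouse was left out.

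The counts over all probe sets were small and moved with the setting. MED23 null against all controls in mock arrays gave 0 calls, against 1 with the filter at 200 and 2 with a variance trend. The variance trend gave 3 in mock arrays against Lck-Cre and 5 in anti-CD3 arrays against all controls, where the main count was 0. Induction in controls gave 14 calls, against 27 with a pseudocount of 100, 33 with the filter at 200, 4 with the variance trend, 42 with no replicate block by mouse and 3 to 9 with 1 mouse left out. Induction in MED23 null mice gave 3, against 1 with a pseudocount of 16, no signal filter, quantile normalization or the variance trend, 0 with no replicate block and 0 to 1 with 1 mouse left out. The cause of these shifts was not tested. Replicate numbers shared between genotypes pair nothing in the labels, the deviations of same-numbered mice correlated at -0.01 to 0.12, and a replicate block by number gave 0 calls in the genotype comparisons.

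The correlation of Car4 with erythroid genes over mice was not run under any setting. Signals near 50 are close to the array background, so the size of the Car4 103046_at difference, and any difference in Car1 and Epor, is poorly determined.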
